A study of Mus musculus with 8 samples.

Results

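The genes examined were 8 genes of oxidant production and acute-phase defence in the intestinal epithelium, Duox2, Duoxa2, Nox1, Noxo1, Nos2, Saa1, Lcn2 and Gpx2. They were chosen by name from the 55114 genes of the deposited table, and all 8 were among the 16109 genes that had enough reads to be tested. RNA came from intestinal crypts, the pockets of the epithelium where intestinal stem cells (ISCs) reside, of 4 Mex3a-/- mice (KO) and 4 littermate controls (Ctrl). All 8 mice were C57BL/6 and 8 weeks old. The KO allele was constitutive, lacking exon 1 and part of exon 2 of Mex3a in every cell of the body, so that the epithelium and all other cells of the gut carried the deletion. The labels gave neither the sex of a mouse nor the region of the intestine, and Xist reads were abundant in replicates 3 and 4 and Ddx3y reads in replicates 1 and 2 of both genotypes. Mex3a itself, which encodes the RNA-binding protein that was deleted, was at 11.0 to 16.0 counts per 1000000 reads (CPM) in Ctrl mice and at 0.260 to 1.09 CPM in KO mice. CPM values are scaled to a common library size by TMM factors.

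The gut epithelium is a barrier that keeps microbes at a distance partly by chemistry. NADPH oxidases at its surface pass electrons to oxygen and release superoxide or hydrogen peroxide, inducible nitric oxide synthase makes nitric oxide, and secreted acute-phase proteins bind lipids or sequester bacterial iron carriers. Many of these genes are induced by the cytokines IL-22 and IL-17 and by NF-kB signalling, and peroxidases inside the cell dispose of the peroxide that returns to it.

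Each library held between 20324184 and 30654105 reads assigned to genes, and mitochondrial genes took 5.63% to 11.6% of them, with the highest share in Ctrl replicate 4. In bulk RNA of this kind, fewer cells of a type and less RNA per cell cannot be told apart. The 2 mice numbered 2, 1 of each genotype, stood above the other 6 mice for 4 of the 8 genes (Duox2, Duoxa2, Nox1 and Gpx2). Among all genes tested, 6.59% had this arrangement. Fold changes of these 4 genes are therefore also given without each of the 2 mice. Car1, an enterocyte carbonic anhydrase that marks the colon, had 22 and 50 reads in the mice numbered 2 and 0 to 6 reads in each of the others (Car1 was singled out after its values were seen). Of the 8 colon markers 6 were under 1 CPM in every mouse. Among them Hoxb13 and Hoxd10 to Hoxd13 had 0 reads in every mouse, so these 5 could not show such a pattern. The summed level of the 8 colon markers was 19.4 to 20.6 CPM in Ctrl and 17.1 to 25.3 CPM in KO. This sum reflects few genes and would hardly show a change of the size seen for Car1.

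Levels of the 8 genes spanned more than 2 orders of magnitude. On the FPKM scale, which divides reads by gene length and so allows genes to be compared, Gpx2 was highest at a mean of 129 over the 8 mice (92.2 to 206), followed by Duox2 at 19.6 (10.8 to 47.1). Nos2 had a mean of 8.85 FPKM (1.59 to 17.0), Duoxa2 7.77 (3.76 to 20.7) and Saa1 4.94 (0.257 to 16.6). Nox1 at 1.73 FPKM (0.470 to 4.73), Noxo1 at 1.17 (0.954 to 1.47) and Lcn2 at 0.369 (0.126 to 0.712) were the lowest. Gpx2 lay above Duox2 in every mouse, and its range did not meet that of Duox2. The range of Lcn2 likewise lay below that of Noxo1, whereas all other neighbours in this order overlapped in range.

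None of the 8 genes passed edgeR's quasi-likelihood test of KO against Ctrl crypts, whether judged by an adjusted p under 0.05, which 0.00621% of all tested genes had, or by an unadjusted p under 0.05, which 8.38% had. By unadjusted p, DESeq2 called 0 of 8 genes and limma 0 of the 7 that passed its FPKM filter (all but Lcn2). All 8 genes overlapped between the genotypes, as all but 4.05% of tested genes did. The fitted log2 fold change of KO over Ctrl was above 0 for 7 of 8 genes, with a median of 0.18 against a median of -0.016 over all genes tested. The 95% intervals were wide for several genes, and for all but Noxo1 and Gpx2 they included a doubling. When replicate number was entered as a block, Nos2 passed an unadjusted p of 0.05, a threshold that 11.3% of tested genes passed in that fit (7.14% as higher in KO and 4.13% as lower), and its adjusted p stayed above 0.05. When the genotypes were compared gene by gene with a two-sided exact permutation test over the 70 ways to divide the mice, whose smallest possible p is 0.0286, the lowest p among the 8 genes was 0.171.

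**Figure D1:**
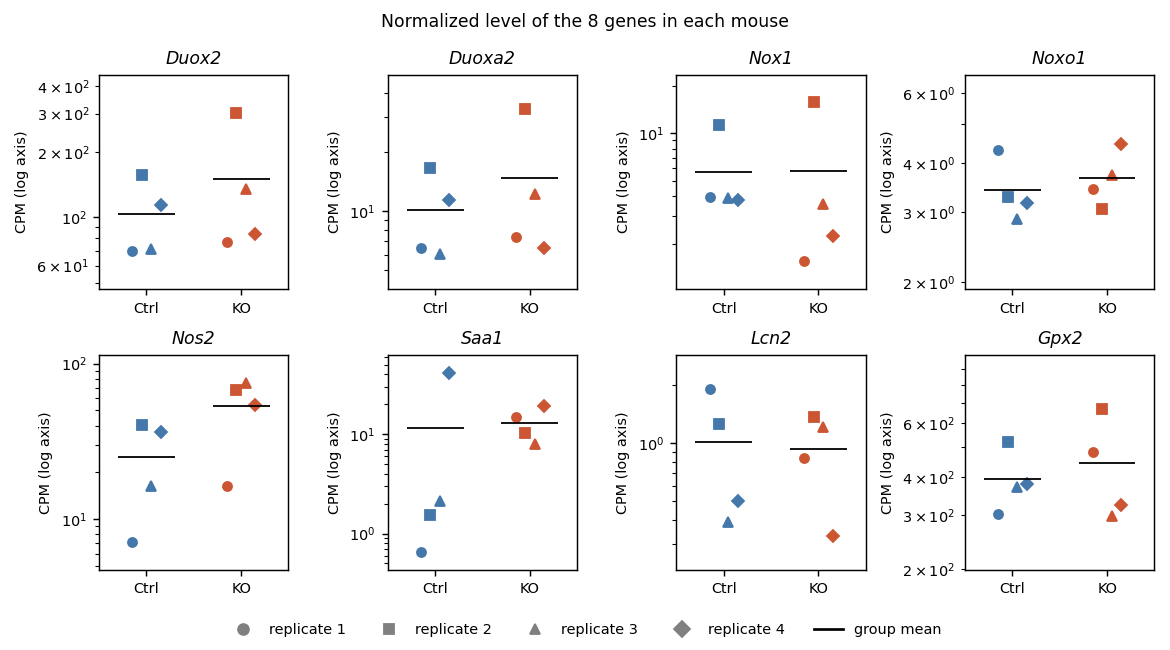
Level of each of the 8 genes in each mouse, as CPM on log axes, with Ctrl mice in blue and KO mice in orange, a marker shape for each replicate number and a bar at the group mean. The mice numbered 2 (squares) stand highest for Duox2, Duoxa2, Nox1 and Gpx2, and Ctrl replicate 4 (diamond, 41.6 CPM) stands far above the other Ctrl mice for Saa1.

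**Figure D2:**
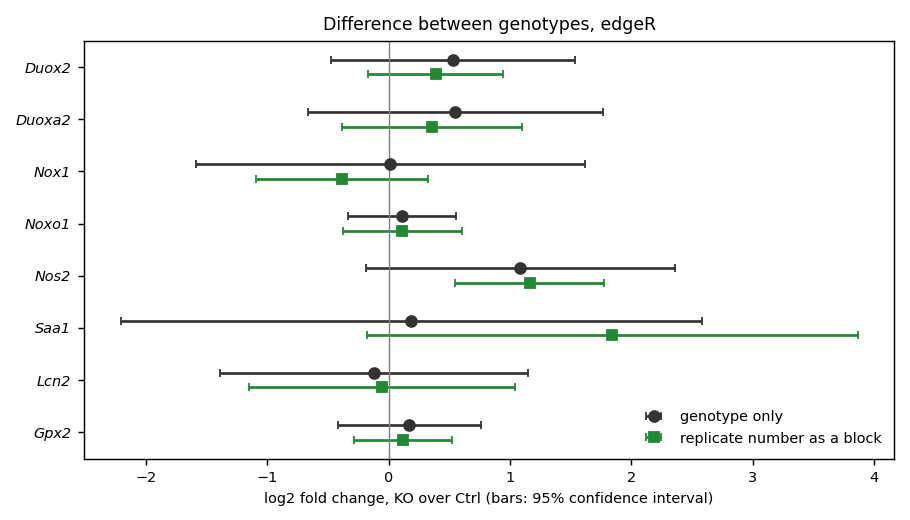
Fitted log2 fold change of KO over Ctrl for each gene with its 95% confidence interval, from edgeR with genotype alone (circles) and with replicate number as a block (squares). All intervals of the first fit include 0, and in the blocked fit that of Nos2 (0.55 to 1.78) lies above 0.

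DUOX2 is the dual oxidase that releases hydrogen peroxide at the apical surface of gut epithelial cells. Its gene (ENSMUSG00000068452) lies on the minus strand at chr2:122279247-122298165 of GRCm38. Duox2 was at 70.3, 157, 71.8 and 114 CPM in Ctrl replicates 1 to 4 and at 76.9, 302, 135 and 83.5 CPM in KO replicates 1 to 4. KO replicate 2 was the highest mouse and Ctrl replicate 2 the next, and the remaining KO mice lay inside the Ctrl range. The group means were 103 ± 41.2 CPM in Ctrl and 149 ± 105 CPM in KO (SD, n = 4 each). The log2 fold change was 0.53 (SE 0.45, 95% interval -0.47 to 1.53, edgeR adjusted p = 0.789), and it was -0.071 without KO replicate 2 and 0.80 without Ctrl replicate 2. Its paralog Duox1, the other dual oxidase, was far lower at 0.627 to 1.51 CPM, and Duox2 exceeded it 41.8-fold to 246-fold in FPKM (median 84.1-fold over the 8 mice). A share of 6.84% of the 50-base windows of the longest Duox2 coding transcript also occurs in Duox1.

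DUOXA2 is the maturation factor that brings DUOX2 to the cell surface. The gene (ENSMUSG00000027225) lies head to head with Duox2 on the plus strand, at chr2:122298900-122302885, with 734 bases between the 2 genes. Duoxa2 was at 6.47, 16.5, 6.01 and 11.4 CPM in the Ctrl mice and at 7.35, 33.1, 12.2 and 6.45 CPM in the KO mice. The order of the mice was close to that of Duox2, with replicate 2 of both genotypes on top. The means were 10.1 ± 4.92 CPM in Ctrl and 14.8 ± 12.5 CPM in KO (SD, n = 4 each), a log2 fold change of 0.55 (SE 0.54, 95% interval -0.67 to 1.76, edgeR adjusted p = 0.826) that was -0.23 without KO replicate 2 and 0.89 without Ctrl replicate 2. Duoxa1, the maturation factor of DUOX1, was at 0.878 to 1.55 CPM. Its exons overlap 682 of the 1592 exonic bases of Duoxa2 on the opposite strand, and because the strand setting of the counting was not given, reads from that stretch cannot be told apart. The r of Duoxa2 with Duoxa1 was 0.69 over the 8 mice.

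Duox2 and Duoxa2 varied together across the mice. Over 8 mice, log2 CPM of the pair had a Pearson r of 0.991 (exact permutation p = 0.000298, 0.00833 after Benjamini-Hochberg adjustment over the 28 pairs of the 8 genes) and a Spearman rho of 0.881 (exact permutation p = 0.00724, adjusted p = 0.203). The relation did not rest on the mice that were farthest from the median, since r was 0.959 without Ctrl replicate 2 and KO replicate 2, and it was 0.996 within Ctrl and 0.992 within KO mice. The ratio of Duox2 to Duoxa2 in FPKM stayed between 2.27 and 3.22, while Duox2 itself differed 4.29-fold between the highest and the lowest mouse. This was the only one of 28 pairs whose r had an adjusted p under 0.05. Entpd8, an ectonucleotidase that breaks down extracellular nucleotides, had the pattern most like Duox2 apart from Duoxa2 (r = 0.980 over 8 mice, with 11336 genes ranked) and also the most like Duoxa2 apart from Duox2 (r = 0.976). Entpd8 ranged from 63.6 to 98.7 CPM.

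NOX1 is the catalytic subunit of the superoxide-producing oxidase of the epithelium, most abundant in the colon. The gene (ENSMUSG00000031257) lies at chrX:134086421-134221956 on the minus strand. Nox1 was at 3.93, 11.3, 3.91 and 3.76 CPM in the Ctrl mice and at 1.55, 15.7, 3.59 and 2.23 CPM in the KO mice. The mice numbered 2 stood apart in both genotypes, and the 3 other KO mice lay below the 3 other Ctrl mice. The means were 5.71 ± 3.70 CPM in Ctrl and 5.76 ± 6.66 CPM in KO (SD, n = 4 each), and the log2 fold change was 0.013 (SE 0.71, 95% interval -1.59 to 1.62, edgeR adjusted p = 0.997). Without KO replicate 2 it was -1.22, with an edgeR adjusted p of 0.624, and it was among the 7.73% of genes with an unadjusted p under 0.05 in that fit. Without Ctrl replicate 2 it was 0.58 and did not pass. Car1 moved with Nox1 in the mice numbered 2, and its part in the Nox1 values was not tested. Exons of Cstf2 on the other strand overlap 399 of the 3307 exonic bases of Nox1. Cstf2 (singled out after its values were seen) was at 72.5 to 85.7 CPM, and its r with Nox1 was 0.60 over the 8 mice.

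NOXO1 organises the NOX1 complex, taking the place that p47phox has in phagocytes. The gene (ENSMUSG00000019320) lies at chr17:24696234-24700529 on the plus strand. Noxo1 was at 4.30, 3.27, 2.88 and 3.17 CPM in the Ctrl mice and at 3.44, 3.06, 3.72 and 4.46 CPM in the KO mice. It was the steadiest of the 8 genes, with 1.55-fold between the highest and the lowest mouse, and the mice numbered 2 did not stand out. The means were 3.41 ± 0.617 CPM in Ctrl and 3.67 ± 0.588 CPM in KO (SD, n = 4 each), with a log2 fold change of 0.11 (SE 0.20, 95% interval -0.34 to 0.55, edgeR adjusted p = 0.929). Tbl3, on the opposite strand, overlaps 2122 of the 3013 exonic bases of Noxo1 and was at 54.5 to 72.6 CPM, so that reads from most of the Noxo1 exons cannot be assigned to 1 of the 2 genes without strand (Tbl3 was singled out after its values were seen). The r of Noxo1 with Tbl3 was -0.44 over the 8 mice.

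Genes for the other subunits of the NOX1 complex had more RNA than Nox1 and Noxo1. Their mean levels over the 8 mice were 28.0 FPKM for Noxa1, 46.6 FPKM for Cyba and 62.2 FPKM for Rac1. The level of Noxo1, and any ratio to it, is limited by the overlap with Tbl3 described above. Noxa1, which encodes the activator subunit, was at 24.2, 73.6, 45.7 and 46.3 CPM in Ctrl and at 34.2, 60.1, 51.5 and 28.4 CPM in KO mice. Cyba, which encodes the p22phox subunit, was at 28.9, 78.4, 53.8 and 46.5 CPM in Ctrl and at 31.7, 59.3, 57.3 and 33.7 CPM in KO mice. Both were highest in the mice numbered 2, as Nox1 was. Neither passed the test between the genotypes (log2 fold changes of -0.12 and -0.19, edgeR adjusted p = 0.957 and 0.914). Rac1, the small GTPase that switches the complex on, was at 258 to 278 CPM in Ctrl and 281 to 298 CPM in KO mice, without overlap but with a log2 fold change of only 0.11 (edgeR adjusted p = 0.679). The FPKM ratio of Nox1 to Noxo1 ran from 0.411 to 4.66, and Nox1 and Noxo1 had an r of -0.45 and a rho of -0.48 over the 8 mice (adjusted exact permutation p = 0.553 and 0.567).

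**Figure D3:**
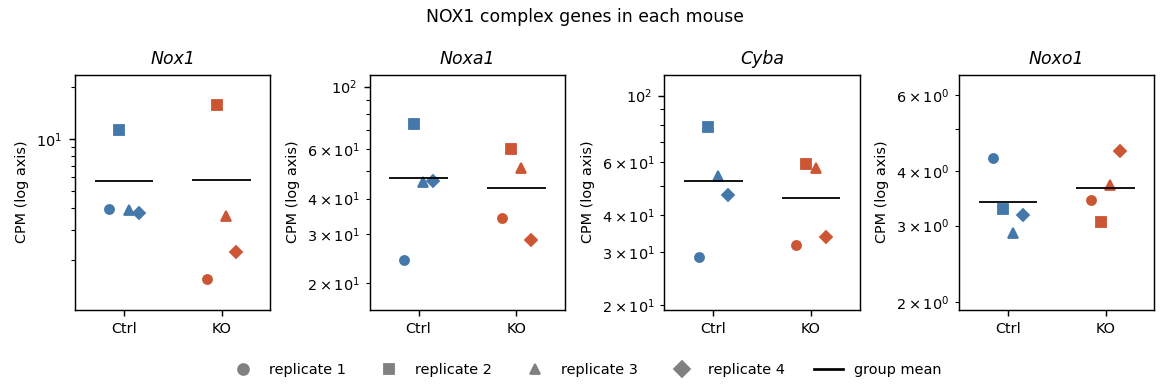
Level of Nox1 and of the genes for its activator (Noxa1), its p22phox subunit (Cyba) and its organiser (Noxo1) in each mouse, as CPM on log axes, with colours, shapes and bars as in the plot of the 8 genes by mouse. Nox1, Noxa1 and Cyba are highest in both mice numbered 2 (squares), and Noxo1 stays between 2.88 and 4.46 CPM.

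The phagocyte members of this oxidase family were scarce. Cybb, the catalytic subunit of the phagocyte oxidase, was at 0.970, 0.701, 1.03 and 1.46 CPM in Ctrl and at 1.60, 1.59, 1.99 and 2.13 CPM in KO mice. Ncf1, which encodes p47phox, was at 1.02, 1.54, 1.32 and 1.75 CPM in Ctrl and at 2.43, 2.06, 2.90 and 3.09 CPM in KO mice. For both genes every KO mouse lay above every Ctrl mouse, an arrangement in either direction that 4.05% of tested genes had. Cybb had a log2 fold change of 0.81 (SE 0.27) and Ncf1 of 0.89 (SE 0.24), with an edgeR adjusted p of 0.518 for each. They were the 2 genes, of 15 tested among 22 listed partners and paralogs, that passed an unadjusted p of 0.05, which 8.38% of all tested genes passed, and DESeq2 and the blocked fit called the same 2. Ncf4, another gene of the phagocyte complex, had a log2 fold change of 0.060. Nox4 was at 0 to 0.209 CPM, and Nox3 had no reads in any mouse. Markers of macrophages, cells known to express both genes, summed to 39.9 to 42.9 CPM in Ctrl and 34.0 to 50.2 CPM in KO mice, and 0 of their 7 tested members passed the unadjusted threshold. In the blocked fit 1 of the 7, the integrin gene Itgam (named after its values were seen), was higher, as 7.14% of all tested genes were. It was at 3.70 to 7.80 CPM in Ctrl and 6.13 to 13.0 CPM in KO mice. Its level in the KO mouse was above that in the same-numbered Ctrl mouse in 4 of 4 pairs, an arrangement that 10.3% of tested genes had. The part of such cells in the Cybb and Ncf1 values was not tested.

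NOS2 is the inducible nitric oxide synthase. The gene (ENSMUSG00000020826) lies at chr11:78920787-78960254 on the plus strand. Nos2 was at 7.12, 40.5, 16.3 and 36.6 CPM in the Ctrl mice and at 16.5, 67.5, 75.3 and 54.2 CPM in the KO mice. KO replicates 2, 3 and 4 lay above every Ctrl mouse, whereas KO replicate 1 lay among them, and replicate 1 was the lowest mouse of each genotype. The means were 25.1 ± 16.0 CPM in Ctrl and 53.4 ± 26.1 CPM in KO (SD, n = 4 each). The log2 fold change of Nos2 was 1.09 (SE 0.57, 95% interval -0.19 to 2.36, edgeR adjusted p = 0.640; exact permutation p = 0.171).

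Within same-numbered pairs, Nos2 was higher in the KO mouse in 4 of 4 pairs, by 1.15, 0.73, 2.17 and 0.56 in log2(CPM + 0.5). An advantage of KO in all 4 pairs was found for 10.3% of all genes tested. Blocking on the replicate number gave a log2 fold change of 1.16 (SE 0.26, 95% interval 0.55 to 1.78), with an edgeR adjusted p of 0.217. Nos2 thereby joined the 7.14% of genes that this fit called higher by their unadjusted p. Several marker groups moved with genotype in the same direction as Nos2. Of the 5 ileum markers all 5 passed the unadjusted threshold as higher in KO (summed level 81.9 to 414 CPM in Ctrl and 437 to 919 CPM in KO), and of the 8 tested markers of T cells and innate lymphoid cells 5 did (27.3 to 62.4 CPM for the 10 listed in Ctrl, 42.0 to 129 CPM in KO). Their part in the Nos2 difference was not tested.

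Nos2 was also considered beside other genes of nitric oxide and arginine metabolism. The neuronal and endothelial synthases Nos1 and Nos3 were at most at 0.251 and 0.252 CPM. Of 11 tested genes among 13 listed, which include Nos2, 0 were called higher and 1 was called lower by the unadjusted p (5.33% and 3.05% of all tested genes were), with a median log2 fold change of 0.049. The lower gene was Pts, an enzyme of tetrahydrobiopterin synthesis, the cofactor of nitric oxide synthases, with 55.2 ± 3.34 CPM in Ctrl and 47.3 ± 5.12 CPM in KO (SD, n = 4 each, log2 fold change -0.22, edgeR adjusted p = 0.557). In the blocked fit Nos2 was higher and Pts and the arginine transporter gene Slc7a2 were lower. The genes most like Nos2 over the 8 mice, of 11336 ranked, were Tff3, the trefoil factor of goblet cells (r = 0.979), and Inpp5j, an inositol polyphosphate phosphatase gene (r = 0.978). Each of the 8 genes had a top r of at least 0.955 in such a ranking. A high r of this kind, here and for the other genes, is therefore not by itself a sign of shared control.

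SAA1 is a serum amyloid A protein, a lipid- and retinol-binding acute-phase protein that is also made by the gut epithelium. The gene (ENSMUSG00000074115) lies at chr7:46740497-46742980 on the minus strand, close to its near-copy Saa2. Over their 366 coding bases the 2 genes differ at 18 positions (95.1% identity), so it matters where reads could be told apart. The stretch below, coding bases 120 to 149 in exon 3 of each gene from GENCODE M21 on GRCm38 (Saa1 at chr7:46741337-46741366, minus strand; Saa2 at chr7:46753446-46753475, plus strand), is shown 5′ to 3′ because it holds 6 of the differences, which are in capitals:
Saa1: tgacatgaaggaagctAActggaaaAaCTC
Saa2: tgacatgaaggaagctGGctggaaaGaTGG
Of the 50-base windows of the longest coding transcript of Saa1, 14.8% also occur in Saa2 or Saa3, so most but not all reads of this length could be placed on Saa1 alone.

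Saa1 was at 0.647, 1.54, 2.15 and 41.6 CPM in the Ctrl mice (14, 33, 44 and 995 reads) and at 14.8, 10.4, 8.05 and 19.3 CPM in the KO mice (352, 267, 186 and 580 reads). The 4 KO mice lay above Ctrl replicates 1, 2 and 3 and below Ctrl replicate 4, the highest of all mice. The means were 11.5 ± 20.1 CPM in Ctrl and 13.1 ± 4.97 CPM in KO (SD, n = 4 each). With all 8 mice the log2 fold change was 0.19 (SE 1.07, 95% interval -2.21 to 2.58, edgeR adjusted p = 0.983; exact permutation p = 0.171). Without Ctrl replicate 4 it was 3.18 (edgeR adjusted p = 0.176), and Saa1 passed an unadjusted p of 0.05 as 9.02% of genes did in that fit. This mouse was left out because of its Saa1 level, so that the value describes the dependence on 1 mouse. Ctrl replicate 4 had the highest mitochondrial share (11.6%) and the highest level of the villus marker Krt20 among Ctrl mice (338 CPM against 116 to 143 CPM). Their part in its Saa1 level was not tested.

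Within pairs, Saa1 was higher in the KO mouse in 3 of 4, by 3.74, 2.41 and 1.69 in log2(CPM + 0.5) in replicates 1, 2 and 3, and the difference was -1.09 in replicate 4. The blocked log2 fold change was 1.84 (edgeR adjusted p = 0.478). Of the other serum amyloid A genes, Saa2 had 0 or 1 read in each Ctrl mouse and 2 to 9 reads in each KO mouse, too few to be tested. Saa3 had 0 to 16 reads in each mouse, with a log2 fold change of 0.43 (edgeR adjusted p = 0.925). The biological coefficient of variation of Saa1 was 0.997, above 99.6% of tested genes, and it differed 64.3-fold between the highest and the lowest mouse. The pattern most like it over the 8 mice was that of Trafd1 (r = 0.966), a zinc-finger regulator of innate signalling.

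LCN2, lipocalin 2, binds the iron-carrying siderophores of bacteria. The gene (ENSMUSG00000026822) lies at chr2:32384633-32388252 on the minus strand. Lcn2 was the scarcest of the 8 genes, with 41, 27, 8 and 12 reads in the Ctrl mice and 20, 35, 28 and 10 reads in the KO mice. These correspond to 1.89, 1.26, 0.391 and 0.501 CPM in Ctrl and 0.840, 1.36, 1.21 and 0.332 CPM in KO. The genotypes were interleaved, and the highest and the lowest mouse of all were a Ctrl and a KO mouse, respectively. The means were 1.01 ± 0.704 CPM in Ctrl and 0.935 ± 0.457 CPM in KO (SD, n = 4 each), with a log2 fold change of -0.12 (SE 0.57, 95% interval -1.39 to 1.15, edgeR adjusted p = 0.978), so that neither a doubling nor a halving could have been told from no change at these read numbers. Mice with Xist reads had 0.332 to 1.21 CPM and mice without them 0.840 to 1.89 CPM. Neutrophils carry much lipocalin 2. All 10 neutrophil markers were under 1 CPM in every mouse, with Mpo, Ly6g and Cxcr2 at 0 reads, and their summed level was 0.970, 0.327, 0.244 and 0.668 CPM in the Ctrl mice and 1.01, 0.388, 0.563 and 0.831 CPM in the KO mice, of the same order as that of Lcn2. Ctrl replicate 1 was the highest Ctrl mouse for both, whereas KO replicate 2 had the most Lcn2 and the lowest sum of neutrophil markers among KO mice, and the part of neutrophils in the Lcn2 values was not tested. Slc22a17, which encodes a lipocalin 2 receptor, was at 0.830 to 2.97 CPM with a log2 fold change of -0.12. The patterns most like that of Lcn2 were those of Mylpf (r = 0.967), a myosin light chain gene of skeletal muscle, and Scarf1 (r = 0.960), a scavenger receptor gene, and both were under 5 CPM.

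Promoter sequence, 250 bases before to 50 bases after the start site in RefSeq on GRCm38.p6, was at hand for 7 of the 8 genes, Nos2 being the exception. Motifs of 4 kinds of factor known to act on such genes were searched on both strands: GGGA, any 3 bases and TCC for NF-kB, TTCNNNGAA for STAT factors, TGACNNNGC for the antioxidant response element and TTNNGCAA for C/EBP. They occur in 4.59%, 8.30%, 12.4% and 10.8% of the 32851 promoter windows of this length. The first 3 were found in none of the 7 promoters and the C/EBP letters in 2, those of Saa1 and Lcn2, the acute-phase genes. The matches are printed 5′ to 3′ on the minus strand, which is the strand of both genes, with the match in capitals, from chr7:46743146-46743171 and chr2:32387939-32387964:
Saa1: gtgctcccaTTGCACAAtgagggaga
Lcn2: cccttcctgTTGCTCAAccttgcaca
The match begins 182 bases before the RefSeq start site of Saa1 and 216 bases before that of Lcn2. The Lcn2 window ends at chr2:32387989 and the Nox1 window at chrX:134112104, both inside the gene intervals printed for these genes. For these 2 genes the sequence searched therefore does not lie before the start of the printed interval. Levels of Saa1 and Lcn2 had an r of -0.54 and a rho of -0.62 over the 8 mice (exact permutation p adjusted over 28 pairs = 0.445 and 0.529). Whether the matches act on either gene was not tested.

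GPX2 is the glutathione peroxidase of the gastrointestinal epithelium, which reduces hydrogen peroxide and is known from crypt cells. The gene (ENSMUSG00000042808) lies at chr12:76792333-76795554 on the minus strand. Gpx2 was at 304, 522, 371 and 378 CPM in the Ctrl mice and at 482, 666, 298 and 325 CPM in the KO mice. Again the mice numbered 2 were the highest of each genotype, and KO mice held both the highest and the lowest value. The means were 394 ± 92.0 CPM in Ctrl and 443 ± 169 CPM in KO (SD, n = 4 each), with a log2 fold change of 0.17 (SE 0.26, 95% interval -0.42 to 0.76, edgeR adjusted p = 0.910) that was -0.091 without KO replicate 2 and 0.34 without Ctrl replicate 2. The 95% interval places any difference in Gpx2 below a doubling in either direction. A share of 18.9% of the 50-base windows of its coding transcript also occurs in the pseudogene Gpx2-ps1. Its closest patterns over the 8 mice were Pigk (r = 0.973), which acts in attaching GPI anchors, and Cetn2 (r = 0.968), a centrin gene.

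Of the other glutathione peroxidases, the ubiquitous Gpx1 was at 428 to 597 CPM, and Gpx2 reached 0.272 to 0.571 of its level in FPKM. Gpx4, which reduces lipid peroxides, was at 92.7 to 128 CPM in Ctrl and 113 to 133 CPM in KO mice, with a log2 fold change of 0.24 (edgeR adjusted p = 0.614). The secreted Gpx3 was at 2.99 to 4.85 CPM, Gpx7 at 0.786 to 1.44 CPM and Gpx8 at 0 to 0.133 CPM. None of the tested peroxidase genes passed an unadjusted p of 0.05.

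The remaining pairs of the 8 genes varied together less firmly than Duox2 and Duoxa2. Nox1 had an r of 0.834 with Duox2 and of 0.847 with Duoxa2 over the 8 mice (exact permutation p adjusted over 28 pairs = 0.0741 for each), with rho of 0.381 and 0.476 (adjusted p = 0.720 and 0.567). Without Ctrl replicate 2 and KO replicate 2 these were 0.24 and 0.24, so both rested on the mice numbered 2. Duox2 and Nos2 had an r of 0.714 (adjusted exact permutation p = 0.226) and a rho of 0.833 (0.215), and r was 0.804 without the 2 mice farthest from the median of Duox2. Gpx2 had an r of 0.730 with Duoxa2, 0.683 with Duox2 and 0.642 with Nox1 (adjusted exact permutation p = 0.226, 0.269 and 0.313), with rho of 0.524, 0.524 and 0.429 (0.551, 0.551 and 0.644), and without the mice numbered 2 r was -0.13, -0.28 and -0.63. In all, 19 of the 28 pairs had a positive r.

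**Figure D4:**
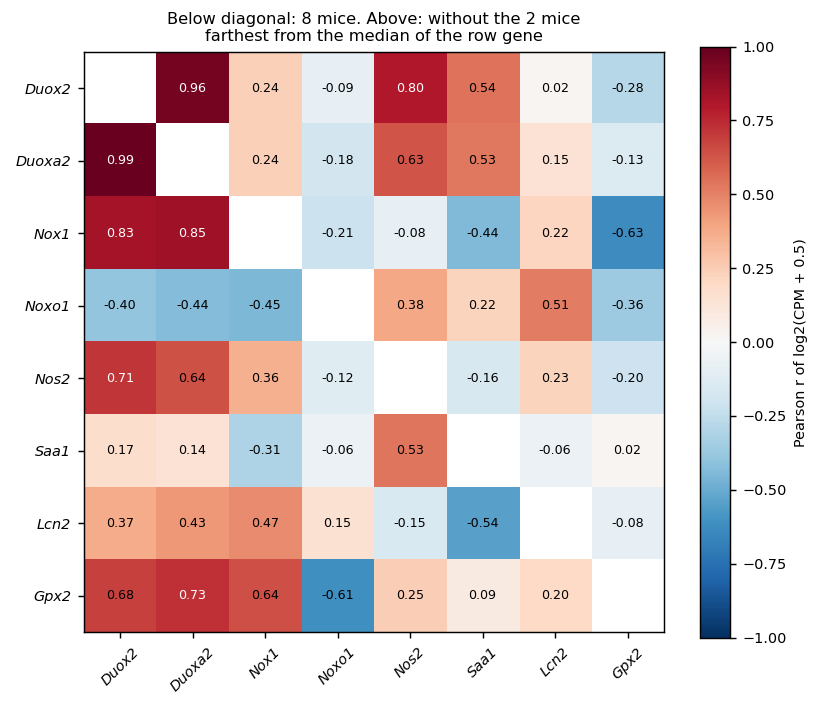
Pearson r between the genes in log2(CPM + 0.5), over 8 mice below the diagonal and, above it, without the 2 mice farthest from the median of the gene that heads the row, with colour from -1 (blue) to 1 (red). Duox2 with Duoxa2 stays at 0.96 above the diagonal, while Nox1 with Duox2 goes from 0.83 to 0.24.

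Genes upstream of the 8 were examined from lists of known pathway members, in which the background is the 5.33% of all tested genes that were higher in KO, and the 3.05% that were lower, by an unadjusted p under 0.05. No gene in the pathway lists had an adjusted p under 0.05 in edgeR or in DESeq2. Of 15 tested genes for IL-22 and IL-17 receptors and their signal, 2 were higher in KO by this rule and 0 lower, with a median log2 fold change of 0.10. They were Il22ra1, the epithelial subunit of the IL-22 receptor, at 27.0 ± 3.06 CPM in Ctrl and 40.7 ± 8.12 CPM in KO (log2 fold change 0.59, SE 0.15, edgeR adjusted p = 0.518), and Il17rc, a subunit of the IL-17 receptor, at 116 ± 16.7 and 152 ± 22.0 CPM (0.39, SE 0.13, edgeR adjusted p = 0.518; SD, n = 4 each). In both the genotypes overlapped. Among 13 inflammatory cytokine genes only 4 had enough reads, and 1, Il1b, was higher in KO at 1.39 ± 0.566 against 0.615 ± 0.190 CPM (log2 fold change 1.18, SE 0.36, edgeR adjusted p = 0.518). Il22 itself, named after its values were seen, had 0 reads in each Ctrl mouse and 1, 2, 1 and 6 reads in the KO mice, which is too few for a test.

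Of 14 NF-kB pathway genes, 2 were higher in KO and 0 lower, with a median log2 fold change of 0.18. They were Nfkbib, an inhibitor of NF-kB (log2 fold change 0.27, SE 0.11, edgeR adjusted p = 0.557), and Tnfaip3, which encodes the feedback inhibitor A20 (0.41, SE 0.17, edgeR adjusted p = 0.567). Both restrain the pathway. In the blocked fit, which called 7.14% of all tested genes higher and 4.13% lower, 4 of the 14 were higher, among them Chuk, a kinase that activates NF-kB, and Birc3, a ubiquitin ligase of the same pathway.

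Among 15 tested epithelial genes known to be induced by IL-22 or IL-17, a list that contains 7 of the 8 genes described here (all but Gpx2), 1 was higher in KO and 0 lower, with a median log2 fold change of 0.19. This was Reg3b, an antibacterial lectin, at 1136, 898, 455 and 1403 CPM in Ctrl and 1765, 3721, 1422 and 1317 CPM in KO mice. KO replicate 4 lay inside the Ctrl range and the other 3 KO mice lay above it. Its log2 fold change was 1.08 (SE 0.40, edgeR adjusted p = 0.545), close in size to that of Nos2. Reg3g, a lectin of the same family, had a log2 fold change of 0.97 (SE 0.45, edgeR adjusted p = 0.604), and it passed the unadjusted threshold in the blocked fit beside Reg3b and Nos2. Of 7 tested acute-phase genes, Saa1 and Lcn2 included, 0 passed in either direction by edgeR or DESeq2, and the blocked fit called C3, the central complement component, higher (log2 fold change 0.61, edgeR adjusted p = 0.416).

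Antioxidant genes other than Gpx2 were taken from lists as well. Of 20 genes of the NRF2 and glutathione list, 1 was higher and 0 lower, with a median log2 fold change of 0.060. This was Srxn1, sulfiredoxin, which repairs oxidised peroxiredoxins, at 57.5 ± 15.9 CPM in Ctrl and 96.7 ± 26.5 CPM in KO (SD, n = 4 each, log2 fold change 0.75, SE 0.24, edgeR adjusted p = 0.518). It was higher in the KO mouse in 4 of 4 pairs, as 10.3% of all tested genes were. The blocked fit called 2 of the 20 higher, Srxn1 among them, and 0 lower, where 7.14% and 4.13% of all tested genes were. The NRF2 gene Nfe2l2 and its targets Nqo1 and Gclc had log2 fold changes of -0.064, -0.098 and -0.071, whereas 11 of the 20 genes of this list were above 0. Of 22 genes for removal of superoxide and peroxide, Sod3, the extracellular superoxide dismutase, was higher without overlap but on 3 to 21 reads per mouse (log2 fold change 1.19, SE 0.36, edgeR adjusted p = 0.518), and Prdx5, a peroxiredoxin, was at 81.7 ± 11.3 CPM in Ctrl and 99.6 ± 9.99 CPM in KO (SD, n = 4 each, 0.29, SE 0.11, edgeR adjusted p = 0.557). The median of that list was 0.025. The blocked fit, which called 7.14% of all tested genes higher and 4.13% lower, called 3 of these genes higher and 1 lower. It added Glrx, a glutaredoxin gene (log2 fold change 0.37), and Txnrd2, the mitochondrial thioredoxin reductase gene (log2 fold change -1.74, edgeR adjusted p = 0.296). Txnrd2 was at 10.8, 5.28, 15.4 and 3.51 CPM in Ctrl and at 9.19, 1.24, 1.47 and 1.26 CPM in KO mice. It was lower in KO in 4 of 4 pairs, and the share of all genes with that arrangement was not counted. Glrx and Txnrd2 were named after their values were seen. Of 5 heme peroxidase genes 1 had enough reads, and it did not pass.

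**Figure D5:**
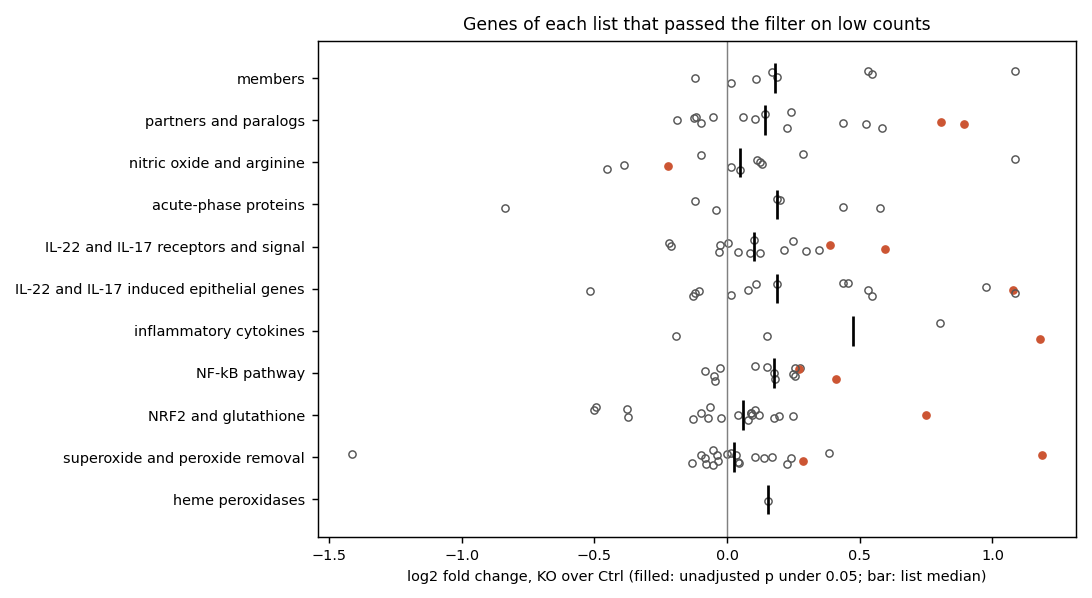
Fitted log2 fold change (KO over Ctrl, edgeR, genotype only) of every tested gene of the 8 genes and of each pathway list, with filled points for an unadjusted p under 0.05 and a bar at the list median. Filled points are few in every list, and the medians lie between 0.025 and 0.48.

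The crypt preparations differed between the genotypes in other respects that stand beside these results. Epithelial markers were abundant in all mice (summed level 9124 to 9727 CPM in Ctrl and 10390 to 11935 CPM in KO), and 3 of 7, the keratin genes Krt8 and Krt19 and the villin gene Vil1, passed the unadjusted threshold as higher in KO. Of 7 markers of the crypt base and of cycling cells 3 were lower, the ISC markers Smoc2, Olfm4 and Lgr5 (log2 fold changes of -0.31, -0.34 and -0.50, with Lgr5 not called under RLE factors), and the summed level was 5022 to 5942 CPM in Ctrl and 3966 to 4865 CPM in KO. Of 8 villus enterocyte markers 3 were higher, among them Apoa1 and Krt20 (1.78 and 1.05), with summed levels of 1088 to 2996 CPM in Ctrl and 1658 to 7067 CPM in KO. Among the ileum markers Slc51a, Slc51b and Fabp6 had log2 fold changes of 1.10, 1.51 and 1.34. Of 6 markers of the proximal small intestine 1, Onecut2, was lower (-0.66), with summed levels of 311 to 485 CPM in Ctrl and 302 to 740 CPM in KO. Gzmb, Cd3e and Cd8a of the lymphoid list had log2 fold changes of 1.39, 1.60 and 1.29. Stroma markers (3.56 to 11.5 CPM summed in Ctrl and 4.70 to 14.8 CPM in KO) had 0 of 4 called in this fit and 1 of 4, Dcn (named after its values were seen), called higher in the blocked fit (0.80), and of the blood markers (1.42 to 4.44 and 0.964 to 2.06 CPM) 1 tested gene, Hba-a1, was lower (-1.26). These counts stand against 5.33% of all tested genes called higher and 3.05% called lower. In the blocked fit (7.14% and 4.13%) 4 of 8 villus markers and 7 of 8 lymphoid markers were higher and 2 of 6 proximal markers lower, beside the macrophage and stroma genes already named. Every adjusted p among these markers was above 0.05 in edgeR, and DESeq2 gave 1 gene each of the epithelium, ileum and proximal lists an adjusted p under 0.05. The part of these groups in the values of the 8 genes was not tested.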

How the data were processed

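The authors deposited 1 table with raw read counts per gene and FPKM values for each mouse. The submitters' processing notes name HISAT2 2.0.5, featureCounts 1.5.0-p3 and CASAVA, and gene positions are on GRCm38; the strand setting of the counting was not given in the sources used here. In the deposited FPKM each count is divided by gene length and by 1 library total per mouse. Columns holding the authors' own fold changes, p-values and group means were not used.

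Counts were filtered with filterByExpr (minimum count 10), scaled by TMM and tested with edgeR 4.0.16 (R 4.3.3), genotype being the only term, with Benjamini-Hochberg adjustment over 16109 genes. FPKM served for levels between genes and for limma 3.58.1 on log2(FPKM + 1). DESeq2 1.42.0 was an alternative. Correlations used log2(CPM + 0.5). The edgeR p-values set the difference between the genotypes against the spread between these mice. Library totals of 20324184 to 30654105 leave genes such as Lcn2 (8 to 41 reads) with large counting error.

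The 8 genes and all lists were chosen with earlier results of these data known. Named genes were the 8, their detected partners and paralogs, up to 3 genes of each other list with the lowest unadjusted p under 0.05, and the 2 protein-coding genes most correlated with each of the 8; others are marked as chosen after their values were seen, and some that the rule names are not reported here. Labels share replicate numbers between genotypes. Same-numbered mice deviated together from their genotype means (r 0.127 to 0.487 over all genes in the 4 pairs, and 0.0775 to 0.459 on autosomes, with 2 pairs above 0.1). Ctrl replicate 4 and KO replicate 3, which differ in number, had an r of 0.221 (0.170 autosomal), above that of 2 same-numbered pairs. The numbers were treated as pairing only in the blocked fit and in the values given within pairs, since all 4 pairs exceeded 0.1 over all genes. This rests partly on shared sex chromosomes. All other edgeR values come from the fit with genotype alone, which ignores the numbers, unless another setting is named. Libraries of a genotype differed by more than counting noise (chi-square over degrees of freedom from 23.8 to 88.6).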

Additional observations from a re-analysis of the deposited data

Results flagged for a closer look

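In groups of 4 mice, a mouse was singled out when its gap to the nearest other mouse, divided by the range of the group, exceeded Dixon's 95% critical value. Of 38 groups examined 3 met this, where chance gives about 1.9. Nox1 stood at 11.3 CPM in Ctrl replicate 2, against 3.76 to 3.93 CPM in the other Ctrl mice, and at 15.7 CPM in KO replicate 2, against 1.55 to 3.59 CPM in the other KO mice. Saa1 stood at 41.6 CPM in Ctrl replicate 4, against 0.647 to 2.15 CPM in the other Ctrl mice.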

How the results depend on the processing

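In the comparison of KO with Ctrl, none of the 8 genes reached an adjusted p under 0.05 under an alternative that gave it one (lowest 0.176, Saa1 without Ctrl replicate 4; DESeq2 gave Lcn2 none). The number of the 8 genes with an unadjusted p under 0.05, 0 in the fit described, was 1 with no filter on low counts (Nos2) and 1 with the replicate block (Nos2), and 0 to 1 when 1 mouse was left out, with Nos2 called without Ctrl replicate 2 or KO replicate 1, Saa1 without Ctrl replicate 4 and Nox1 without KO replicate 2. Over all genes the number with an adjusted p under 0.05, 1 in the fit described, was 93 with DESeq2, 4 with a covariate for Xist, 3 with limma on log2(FPKM + 1) without filter, 2 with edgeR without filter, 0 with at least 10 counts in every mouse, 0 with the replicate block and 0 to 4 when 1 mouse was left out. The number with an unadjusted p under 0.05 was 1350 with all mice, 2011 with no filter, 1815 with the replicate block and 846 to 2133 when 1 mouse was left out, with 1273 without Ctrl replicate 2, 2133 without KO replicate 1, 1474 without Ctrl replicate 4 and 1265 without KO replicate 2.

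The log2 fold change of Nos2 kept its direction under all 19 alternatives (0.78 to 1.41), as did that of Noxo1 (0.0013 to 0.24). That of Nox1 was -0.096 with the Xist covariate, -0.37 with limma on log2(FPKM + 0.1), -0.15 with limma on log2(FPKM + 1) with or without filter, -0.39 with the replicate block and -1.22 to 0.58 with 1 mouse left out. Lcn2 was 0.035 with the Xist covariate and -0.38 to 0.37 with 1 mouse left out. With 1 mouse left out, Duox2 was -0.071 to 0.80, Duoxa2 -0.23 to 0.89, Saa1 -0.21 to 3.18 and Gpx2 -0.091 to 0.34; the replicate block changed no other call among the 8 genes. With all mice kept, Saa1, 0.19 in the fit described, was 1.15 with the Xist covariate, 1.08 with limma on log2(FPKM + 1), 1.84 with limma on log2(FPKM + 0.1) and 1.84 with the replicate block. Lcn2 could not be fitted with 10 counts in every mouse or with the FPKM filter. The cause of these changes was not tested beyond the mouse left out.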
